A study of Homo sapiens with 32 samples.

Results

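The interferon-stimulated antiviral genes were a list of 56 human genes. The list names its genes and sets no threshold on measured values, but it was drawn up with earlier results of these data known. On these arrays 53 of them had a probe named after them, out of 16920 named genes and 24518 probes. USP18, HERC6 and TDRD7 were in the list and had no named probe, so they have no value here. The 53 genes had 74 probes. For the 11 genes with several probes, the probe with the highest mean intensity over all arrays stood for the gene.

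RNA was measured in THP-1, a human monocytic leukaemia cell line, on Illumina HumanRef-8 beadchips. Cells of all groups were starved overnight in low-serum medium and then held for 24 h with an additive. The additives were LPS at 100 ng/ml together with TGFβ1 at 1 ng/ml, LPS alone, TGFβ1 alone, or PBS as the control, with 8 arrays for each of the 4 treatments. The arrays lay on 4 chips, and every chip carried 2 arrays of each treatment. Whether the replicates were separate cultures is not stated, and the p-values therefore speak to array-to-array spread alone, part of which may be technical. By the labels each treatment also kept fixed positions on its chip, so that treatment and chip position cannot be told apart. For LPS+TGFβ1 replicates 1, 3, 5 and 7 the labels give positions already given to 4 TGFβ1 arrays, which cannot all be right. Replicate numbers and chips were taken as labelled, and every comparison by chip or number rests on them.

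Type I interferons bind a receptor of the IFNAR1 and IFNAR2 chains, whose kinases TYK2 and JAK1 start a signal to the nucleus. There a complex that holds IRF9 binds interferon-stimulated response elements in promoters and switches on a large set of genes whose products sense, degrade or block viral RNA and proteins. LPS, the endotoxin of Gram-negative bacteria, reaches the same genes in monocytes and macrophages: its receptor TLR4 signals through the adaptor TICAM1 to IRF3, which drives IFNB1, and the secreted interferon β then acts back on the cells.

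The core letters of that response element were looked up in the promoters, because they are what many of these genes are known to share. Of the 53 genes, 42 had a promoter window in the RefSeq table used (GRCh38.p14, 250 bases before to 50 after the transcription start). The letters GAAA, then any 2 bases, then GAAA, on either strand, occurred in the windows of 31 of these 42 genes (73.8%), against 1195 of 27305 genes in the whole table (4.38%). Where a gene had several matches, only the one nearest the start was kept. These nearest matches lay from -183 to 18 bases from the start, with a median of -51. The sequences below are 60 bases around the match in 8 genes with large LPS changes (log2 changes of 3.46 for HERC5 to 7.10 for IFI27) and in NMI, which changed least among the called genes. They run 5′ to 3′ in the direction of the gene, and the capitals mark only the match nearest the start. A match that starts with TTTC is the same element read on the other strand. The stretches of IFI27, IFIT1 and ISG15 each hold a further match, which is left in lower case.
IFI27: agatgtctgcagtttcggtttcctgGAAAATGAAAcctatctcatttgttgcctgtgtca
IFI44L: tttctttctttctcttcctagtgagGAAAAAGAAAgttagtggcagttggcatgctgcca
IFIT1: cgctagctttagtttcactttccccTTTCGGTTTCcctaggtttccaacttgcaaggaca
EPSTI1: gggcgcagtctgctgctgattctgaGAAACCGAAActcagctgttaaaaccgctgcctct
ISG20: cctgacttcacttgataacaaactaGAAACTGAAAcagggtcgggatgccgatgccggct
IFIT3: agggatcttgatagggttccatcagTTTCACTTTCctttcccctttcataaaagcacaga
ISG15: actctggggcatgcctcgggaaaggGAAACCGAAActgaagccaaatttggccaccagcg
HERC5: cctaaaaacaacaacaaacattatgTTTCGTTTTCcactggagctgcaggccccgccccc
NMI: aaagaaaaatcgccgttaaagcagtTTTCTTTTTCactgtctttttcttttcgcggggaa

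On GRCh38.p14 these stretches are chr14:94110616-94110675 (IFI27, plus strand), chr1:78620350-78620409 (IFI44L, plus), chr10:89392495-89392554 (IFIT1, plus), chr13:42992257-42992316 (EPSTI1, minus), chr15:88638922-88638981 (ISG20, plus), chr10:89332453-89332512 (IFIT3, plus), chr1:1013365-1013424 (ISG15, plus), chr4:88457020-88457079 (HERC5, plus) and chr2:151289797-151289856 (NMI, minus). The 9 were taken from genes whose stretch ends before the annotated start. The stretches of IFI44, MX1 and IFITM1 reach past the start and are not printed, although these genes changed more than HERC5. IFITM3, with a log2 change of 3.89 and its match at -35, was also left out, although its stretch ends before the start. The genes with a match had a median log2 change of 2.74 with LPS, and the 11 genes without one had a median of 2.63. OAS1, with a log2 change of 4.02, and IFI16, with 3.46, were among those without these letters in the window, which says only that these exact letters are not in that window. The letters TTCNNNGAA of the gamma-activated site, an element of genes that respond to interferon γ, occurred in the windows of 12 of the 42 genes (28.6%), against 9.38% of the genes of the table.

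The cells carried monocyte markers: of the 10 measured, 9 (CD14, CD68, CEBPA, CSF1R, FCGR1A, ITGAM, ITGB2, LYZ and SPI1) were above background on every array of each treatment. MPO, a granule enzyme of myeloid precursors, was above background on all TGFβ1 and PBS arrays, on 1 LPS array and on no LPS+TGFβ1 array. Of the 11 measured markers of other cell types, CD3D, CD3E, COL1A1, COL1A2, EPCAM, HBB and PPBP were above background on no array, whereas PECAM1 was above it on all of them. CD79A was above background on 6 LPS+TGFβ1, 1 LPS, 6 TGFβ1 and 5 PBS arrays, MS4A1 on 1 LPS+TGFβ1 and 1 LPS array, and KRT18 on 1 TGFβ1 array. Between 12184 and 13542 probes per array were above background, and the upper quartile of intensity ranged from 345 to 381 over the arrays. Of the 53 antiviral genes, all were above background on every LPS+TGFβ1 and LPS array, against 46 to 50 on TGFβ1 arrays and 44 to 50 on PBS arrays.

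The antiviral genes stood at 2 levels within each LPS treatment, which bears on every result below. The median over the 53 genes of log2(intensity + 50) was 12.33 to 12.40 on 4 LPS+TGFβ1 arrays and 11.11 to 11.22 on the other 4, and 12.51 to 12.57 on 4 LPS arrays against 10.73 to 10.89 on the other 4. Replicates 2, 5, 6 and 8 were at the upper level and replicates 1, 3, 4 and 7 at the lower one in either treatment. Chips 1 and 4 therefore held 1 array of each level, whereas both arrays of chip 3 were at the upper level and both of chip 2 at the lower one. Without LPS the gap was smaller and, replicate 7 aside, in the other order: replicates 1, 3 and 4 were at 8.52 to 8.62 and the others at 8.07 to 8.26 on TGFβ1 arrays, and at 8.35 to 8.40 and 7.91 to 8.13 on PBS arrays. Replicate 7 was among the lower arrays both with and without LPS. The medians over the housekeeping genes were 12.29 to 12.49 on LPS+TGFβ1 arrays, 12.11 to 12.47 on LPS arrays, 12.22 to 12.65 on TGFβ1 arrays and 12.49 to 12.81 on PBS arrays. The comparisons over all arrays below therefore carry this spread, and the chips are compared with each other at the end.

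**Figure D1:**
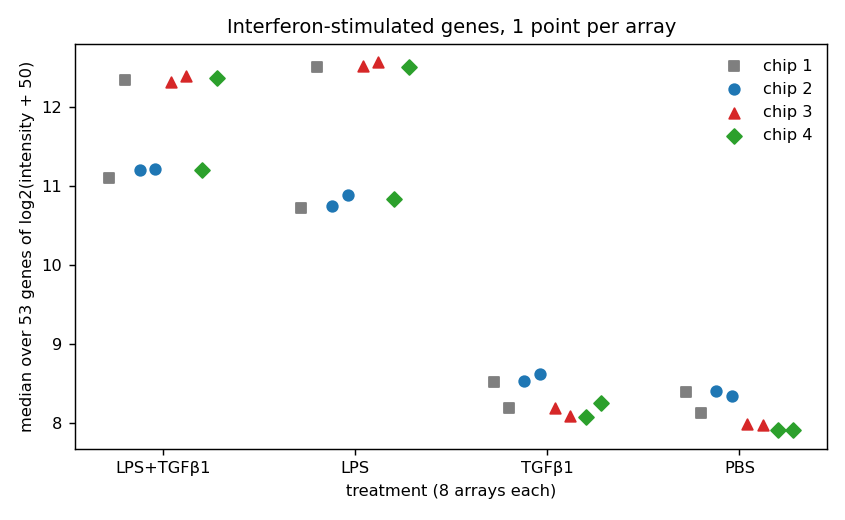
Median over the 53 genes of log2(intensity + 50), 1 point per array, by treatment (8 arrays each) and chip. LPS+TGFβ1 and LPS arrays lie at 2 levels, with chip 3 at the upper and chip 2 at the lower one, and all of them lie above the TGFβ1 and PBS arrays.

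LPS alone raised nearly the whole antiviral program. Against PBS, 52 of the 53 genes were higher and none was lower (limma, Benjamini-Hochberg adjusted p under 0.05 over all probes), where 15.1% of all probes were higher and 15.1% lower. At least 2-fold higher were 50 genes, against 3.82% of all probes. The median log2 change of the 53 genes was 2.78, against 0.06 over all probes, and for 50 genes every LPS array lay above every PBS array, which held for 7.52% of all probes. A fold change on the log2(intensity + 50) scale understates the change of dim genes.

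Among the IFI genes, IFI27, which codes for a small mitochondrial and endoplasmic reticulum protein, changed most. IFI27 intensity was 5296 to 34985 on LPS arrays (median 19654), against 30.9 to 104 on PBS arrays (median 36.1), only 3 of which were above background. The groups did not overlap, and the log2 change was 7.10 ± 0.47 (SE, n = 8 arrays each, limma adjusted p = 1.17e-14). IFI44L, a protein of the same cytoplasmic family as IFI44, was at 2637 to 17064 on LPS arrays (median 8840), against 28.5 to 43.9 on PBS arrays (median 34.7), of which 2 were above background, a log2 change of 6.32 ± 0.39 (adjusted p = 1.62e-15). IFI44 was at 4254 to 18154 on LPS arrays (median 9837), against 92.9 to 158 on PBS arrays (median 115), a change of 5.71 ± 0.30. Neither gene had an LPS array within its PBS range. EPSTI1, named for its induction in epithelial cells by stroma, was at 3432 to 15469 on LPS arrays (median 8259), against 114 to 212 on PBS arrays (median 140), a change of 5.16 ± 0.31. All 10 genes of this role rose, among them IFI6, an inhibitor of apoptosis, by 2.98 ± 0.23, the apoptosis-promoting XAF1 by 2.89 ± 0.23, IFI35 by 2.63 ± 0.33, the aminopeptidase LAP3 by 2.54 ± 0.15 and APOL6 by 1.41 ± 0.23. NMI, which binds IFI35, rose least: it was at 2292 to 3838 on LPS arrays (median 2563), against 2002 to 2894 on PBS arrays (median 2234), groups that overlap, with a change of 0.32 ± 0.11 (adjusted p = 0.0191).

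Both MX genes, which code for dynamin-like GTPases that trap viral nucleocapsids, rose. MX1 intensity was 10992 to 41435 on LPS arrays (median 25801), against 286 to 771 on PBS arrays (median 352), with no overlap and a log2 change of 5.57 ± 0.29 (adjusted p = 3.00e-17). MX2, which acts against retroviruses, was at 2528 to 10851 on LPS arrays (median 6195), against 156 to 565 on PBS arrays (median 181), a change of 4.06 ± 0.37.

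All 4 IFIT genes rose, whose products bind foreign 5′ ends of RNA and block its translation, with a median log2 change of 4.59. IFIT1 intensity was 1962 to 11050 on LPS arrays (median 5234), against 38.3 to 71.6 on PBS arrays (median 59.99), a change of 5.42 ± 0.31 (adjusted p = 2.95e-16). IFIT3 was at 1869 to 11042 on LPS arrays (median 6107), against 86.4 to 151 on PBS arrays (median 111), a change of 4.86 ± 0.34. IFIT2 was at 1266 to 9710 on LPS arrays (median 4611), against 98.1 to 156 on PBS arrays (median 124), a change of 4.32 ± 0.39. In these 3 genes no LPS array fell into the PBS range. IFIT5, at 87.8 to 286 on LPS arrays (median 160), was above background on no PBS array (11.8 to 40.7), so that it was at least 2.31-fold higher (log2 change 1.44 ± 0.16, adjusted p = 2.99e-09).

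The OAS family senses double-stranded RNA and makes the 2-5A messenger that turns on RNase L, except OASL, which makes none. All 4 genes rose. OAS2 intensity was 6980 to 18982 on LPS arrays (median 13132), against 306 to 764 on PBS arrays (median 389), a log2 change of 4.59 ± 0.24 (adjusted p = 4.02e-17). OASL was at 609 to 3444 on LPS arrays (median 1858), against 12.6 to 50.4 on PBS arrays (median 33.5), of which 3 were above background, a change of 4.20 ± 0.34. OAS1 was at 1124 to 5115 on LPS arrays (median 2436), against 55.5 to 198 on PBS arrays (median 69.4), a change of 4.02 ± 0.30. The groups were apart in each of these genes. OAS3 was dim, at 41.7 to 233 on LPS arrays (median 74.3) and above background on no PBS array (-8.69 to 29.3), and was at least 1.59-fold higher (log2 change 1.30 ± 0.24, adjusted p = 4.82e-05).

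The 3 IFITM genes, whose membrane proteins hinder the fusion of enveloped viruses with endosomes, rose together. They are close copies of each other, and whether their probes tell them apart was not tested. IFITM1 intensity was 4757 to 20208 on LPS arrays (median 11849), against 171 to 980 on PBS arrays (median 441), a log2 change of 4.20 ± 0.39. IFITM3 was at 12531 to 41952 on LPS arrays (median 25802), against 542 to 1970 on PBS arrays (median 1752), a change of 3.89 ± 0.34. IFITM2 was at 10200 to 36855 on LPS arrays (median 23514), against 1323 to 4475 on PBS arrays (median 4214), a change of 2.49 ± 0.34. All LPS arrays lay above all PBS arrays in the 3 genes. PBS replicate 8 was far below the other PBS arrays for IFITM2 and IFITM3, and without it their changes were 2.29 ± 0.33 and 3.69 ± 0.33, still called.

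**Figure D2:**
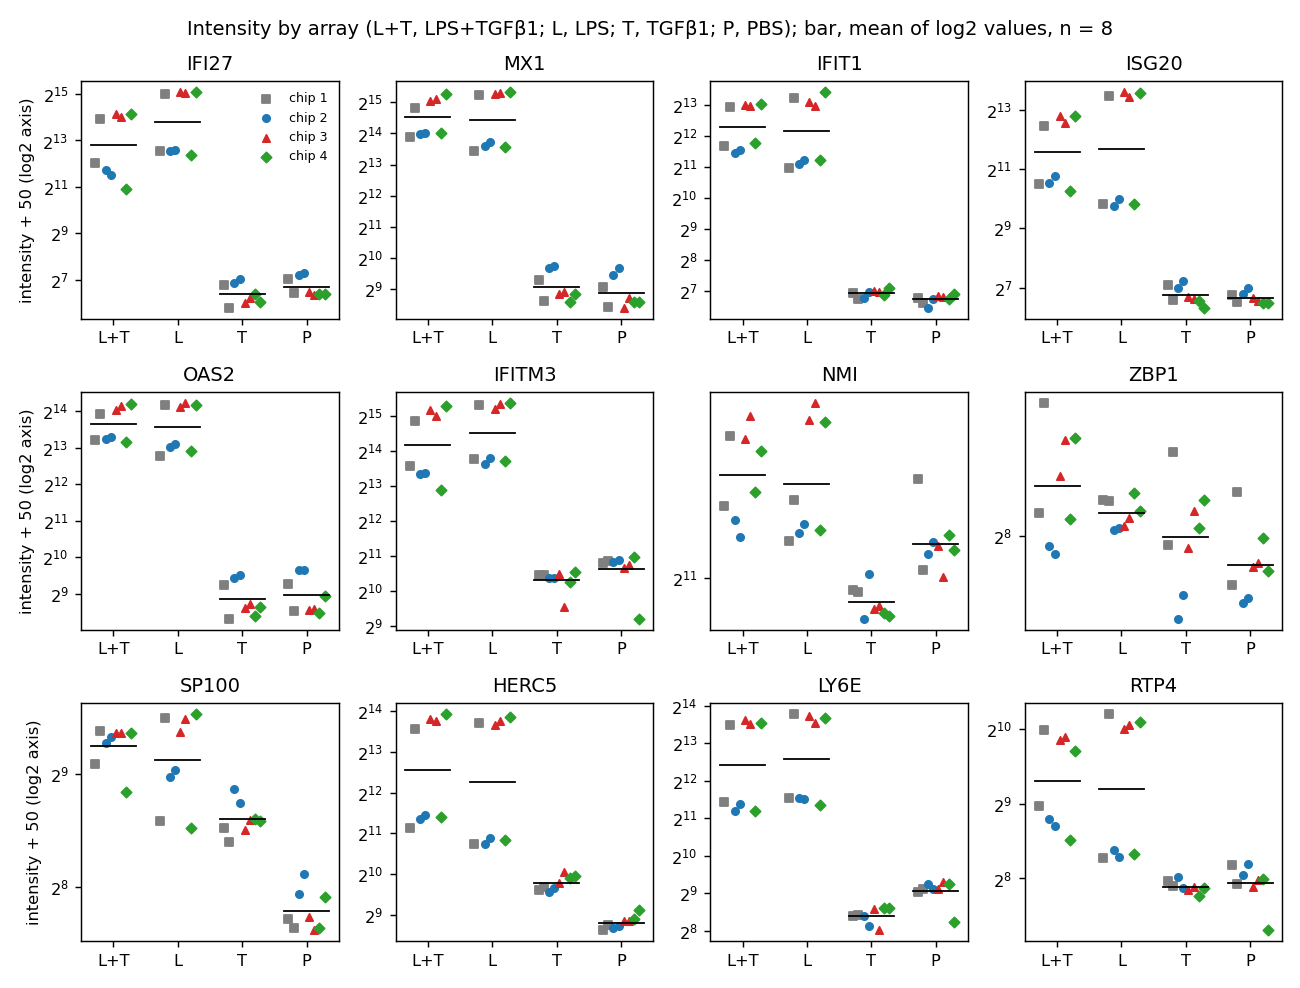
Intensity + 50 on a log2 axis for 12 genes, 1 point per array, with LPS+TGFβ1, LPS, TGFβ1 and PBS from left to right, chips by colour and bars at the mean of the log2 values (n = 8). LPS arrays stand above PBS arrays in 10 of the panels, and these groups overlap for NMI and ZBP1.

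ISG15 is a ubiquitin-like protein that UBE2L6 and HERC5 attach to newly made proteins. ISG15 intensity was 4043 to 16285 on LPS arrays (median 8425), against 108 to 517 on PBS arrays (median 354), a log2 change of 4.49 ± 0.31 (adjusted p = 3.86e-14) with no overlap. Its ligase HERC5 rose by 3.46 ± 0.47 and its conjugating enzyme UBE2L6 by 2.59 ± 0.34. Among the effectors on nucleotides and RNA, the exonuclease ISG20 was at 816 to 12384 on LPS arrays (median 6011), against 39.7 to 77.9 on PBS arrays (median 46.7), of which 5 were above background, a change of 5.03 ± 0.53 with no overlap and the widest spread among these LPS groups. CMPK2 and RSAD2, neighbours in the genome whose products make a chain-terminating nucleotide, rose by 3.07 ± 0.38 and 2.65 ± 0.48, and SAMD9L and SAMD9 by 3.04 ± 0.25 and 1.81 ± 0.25. The ADP-ribosyltransferase family genes PARP12, PARP14 and PARP9 rose by 2.95 ± 0.23, 2.74 ± 0.25 and 2.49 ± 0.21.

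Sensors rose in 6 of 7 genes: the DNA sensor IFI16 by 3.46 ± 0.28, the RNA helicases IFIH1, DHX58 and DDX60 by 3.13 ± 0.25, 2.78 ± 0.29 and 2.32 ± 0.21, and the double-stranded RNA kinase EIF2AK2 by 2.17 ± 0.17. ADAR, which edits double-stranded RNA, was at 7062 to 10770 on LPS arrays (median 9066), against 3388 to 4430 on PBS arrays (median 3856), apart from each other, with a log2 change of 1.17 ± 0.10 (adjusted p = 3.15e-12). ZBP1, a sensor of Z-form nucleic acids that can start necroptosis, was the one gene of the list without a call. It was at 209 to 230 on LPS arrays (median 218), against 172 to 231 on PBS arrays (median 189), with a change of 0.16 ± 0.07 (adjusted p = 0.106). With the replicate number as a block its adjusted p was 0.0201, at the same change.

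The TRIM genes code for ubiquitin ligases, and their median log2 change of 1.30 was the lowest among the roles listed here. TRIM22 nonetheless rose by 3.95 ± 0.35 and the retroviral restriction factor TRIM5 by 1.53 ± 0.23. TRIM25, the ligase that acts on the sensor RIG-I, was at 1225 to 2414 on LPS arrays (median 1570), against 450 to 1022 on PBS arrays (median 731), a change of 1.08 ± 0.16 (adjusted p = 1.80e-06). TRIM21, a cytosolic antibody receptor, was at 717 to 2053 on LPS arrays (median 1143), against 428 to 758 on PBS arrays (median 706), overlapping groups, a change of 0.76 ± 0.21 (adjusted p = 0.00373). Of the surface and secreted proteins, LY6E rose by 3.52 ± 0.40, PLSCR1 by 2.17 ± 0.25, the tether of budding virions BST2 by 1.92 ± 0.18 and LGALS3BP by 1.61 ± 0.18. SIGLEC1, a sialic acid receptor of activated monocytes, was above background on no PBS array and was at least 5.74-fold higher (log2 change 2.73 ± 0.28). RTP4, a chaperone of membrane receptors, was at 261 to 1121 on LPS arrays (median 624), against 109 to 243 on PBS arrays (median 204), a change of 1.26 ± 0.27 (adjusted p = 0.000272). The nuclear body proteins SP110 and SP100 rose by 2.09 ± 0.26 and 1.34 ± 0.12.

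Beside these targets, the parts of the pathway above them were read on the same arrays. IFNB1 intensity was 46.8 to 247 on LPS arrays (median 125), all above background, against 1.42 to 33.8 on PBS arrays (median 15.999), none of which was, so that IFNB1 was at least 1.83-fold higher (adjusted p = 5.5e-06). It was the only ligand called higher of 21 measured, and IFNA8 fell by 0.23 ± 0.07 on the log2 scale. Of the receptor chains and kinases 6 of 9 rose and none fell, led by IFNGR2 with 2.55 ± 0.08, IFNGR1 with 1.49 ± 0.17, IFNAR1 with 1.20 ± 0.08 and TYK2 with 1.10 ± 0.10. Of the 9 STAT and IRF genes measured 4 rose and 1 fell: IRF7, which amplifies interferon production, by 3.52 ± 0.22, IRF9 by 2.08 ± 0.12, IRF1 by 1.67 ± 0.31 and STAT3 by 1.11 ± 0.08, whereas the log2 change of IRF8 was -0.66 ± 0.07. Of the 15 genes on the route from TLR4 and other sensors to interferon 11 rose and none fell, among them CD14 by 5.06 ± 0.19, LY96 by 3.24 ± 0.19, IKBKE by 2.24 ± 0.17, RIGI by 2.12 ± 0.25 and TICAM1 by 1.25 ± 0.07. Of the 7 negative regulators 4 rose: the phosphatases PTPN6 and PTPN2 by 1.18 ± 0.10 and 1.08 ± 0.08, and SOCS1 and SOCS3, both above background on no PBS array, to at least 1.48-fold and 1.18-fold.

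TGFβ1 alone gave few calls among the antiviral genes in the fit over all arrays. Against PBS, 1 of the 53 was higher and none was lower, where 5.28% of all probes were higher and 3.65% lower, and 6 had an unadjusted p under 0.05. The median log2 change was 0.05, against -0.05 over all probes. SP100, a protein of nuclear bodies, was at 288 to 418 on TGFβ1 arrays (median 335), against 146 to 228 on PBS arrays (median 161), with no overlap and a log2 change of 0.82 ± 0.12 (limma adjusted p = 7.50e-06). The same-numbered arrays of these groups deviated together, and with the number as a block 2 genes were higher and 1 lower, where 6.95% of all probes were higher and 6.78% lower. PLSCR1, a phospholipid-binding protein, was the added rise, at 256 to 501 on TGFβ1 arrays (median 426), against 173 to 286 on PBS arrays (median 212), groups that overlap, with a change of 0.71 (adjusted p = 0.0826 without and 0.00292 with the block). NMI was the fall, at 1712 to 2026 on TGFβ1 arrays (median 1787), against 2002 to 2894 on PBS arrays (median 2234), with a change of -0.31 (adjusted p = 0.0665 without and 0.0392 with the block).

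HERC5 had the largest change with TGFβ1 and was not called in the fit over all arrays. HERC5 intensity was 700 to 1003 on TGFβ1 arrays (median 802), against 345 to 508 on PBS arrays (median 396). Every TGFβ1 array lay above every PBS array, the 8 same-numbered pairs all had the same direction, and the log2 change was 0.96 ± 0.47 (adjusted p = 0.281). The SD of its log2 values was 1.58 over LPS arrays and 1.30 over LPS+TGFβ1 arrays, against 0.17 over TGFβ1 arrays and 0.16 over PBS arrays, and the fit shares 1 estimate of the spread over the 4 groups. In a fit of the TGFβ1 and PBS arrays alone the HERC5 change of 0.96 had an SE of 0.09 (adjusted p = 8.79e-08). That fit called 7 of the 53 genes higher, namely HERC5, SP100, PLSCR1, TRIM21, IFI44, EPSTI1 and IFIT2, and 3 lower, namely LY6E, NMI and SP110, where 5.34% of all probes were higher and 3.74% lower. Besides HERC5, BST2, EPSTI1, IFI44, IFIT1, IFIT2, MX1, PARP12, PLSCR1, SP100, TRIM22 and XAF1 were higher with TGFβ1 in all 8 same-numbered pairs. IFI27, NMI and SP110 were lower in all 8 pairs. How often this held over all probes was not counted.

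LY6E, a membrane protein that hinders coronavirus fusion, was at 210 to 345 on TGFβ1 arrays (median 290), against 250 to 580 on PBS arrays (median 507), with a log2 change of -0.66 ± 0.40 (adjusted p = 0.436). IFITM1 was at 199 to 509 on TGFβ1 arrays (median 240), against 171 to 980 on PBS arrays (median 441), with a change of -0.65 ± 0.39 (adjusted p = 0.432). These groups overlap only through PBS replicate 8 for LY6E, at 250.04, and through several arrays for IFITM1. IFITM2 and IFITM3 had changes of -0.39 ± 0.34 and -0.31 ± 0.34, and without PBS replicate 8 they were -0.59 and -0.51, none of them called. TRIM21 was at 717 to 1073 on TGFβ1 arrays (median 913), against 428 to 758 on PBS arrays (median 706), a change of 0.44 ± 0.21 (adjusted p = 0.245). SP110, the relative of SP100, was at 772 to 879 on TGFβ1 arrays (median 841), against 978 to 1104 on PBS arrays (median 1038), with a change of -0.30 ± 0.26 in the fit over all arrays although no array of the one group reached the other. Of the other pathway genes, TGFβ1 raised IFNGR2 by 1.95 ± 0.08, TYK2 by 0.89 ± 0.10, IFNGR1 by 0.75 ± 0.17, IL10RB by 0.67 ± 0.08 and IFNAR1 by 0.44 ± 0.08, that is 5 of the 9 receptor and kinase genes, and none of the 21 ligands passed the test. On the route to interferon 3 of the 15 genes were higher, as was 1 of the 9 STAT and IRF genes. Of the 7 negative regulators 2 were lower. Over all probes 5.28% were higher and 3.65% lower.

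Adding TGFβ1 to LPS gave no call among the antiviral genes over all arrays. Against LPS alone none of the 53 was higher and none was lower in the LPS+TGFβ1 group, where 5.65% of all probes were higher and 6.97% lower, 2 had an unadjusted p under 0.05, and the median log2 change was 0.07, against -0.10 over all probes. With the number as a block none was called either, where 8.27% of all probes were higher and 17.6% lower. IFI27 was the gene with the largest difference. Its intensity was 1844 to 18230 on LPS+TGFβ1 arrays (median 9778), against 5296 to 34985 on LPS arrays (median 19654), groups that overlap, with a change of -0.99 ± 0.47 (adjusted p = 0.162, and 0.0871 with the block). In all 8 same-numbered pairs it was lower with TGFβ1, by log2 differences from -1.50 to -0.54. The direction was also the same in all 8 pairs for IFITM3, LY6E and TRIM25, which were lower, and for OAS3 and LGALS3BP, which were higher, none of which passed the test. The share of all probes with the same direction in all 8 pairs was not counted.

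No MX, IFIT or OAS gene passed the test when TGFβ1 was added. MX1, at 15234 to 39041 on LPS+TGFβ1 arrays (median 22676) and 10992 to 41435 on LPS arrays (median 25801), had a log2 change of 0.09 ± 0.29. IFIT1, at 2766 to 8468 on LPS+TGFβ1 arrays (median 5716) and 1962 to 11050 on LPS arrays (median 5234), had 0.15 ± 0.31. OAS2, at 9042 to 18668 on LPS+TGFβ1 arrays (median 12685) and 6980 to 18982 on LPS arrays (median 13132), had 0.09 ± 0.24. With SEs of this size modest changes could not be told from none.

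The other genes with the lowest values when TGFβ1 was added did not pass the test either. IFI6 was at 9501 to 26859 on LPS+TGFβ1 arrays (median 17504), against 11845 to 39101 on LPS arrays (median 21335), a log2 change of -0.45 ± 0.23. A second, dimmer probe of IFI6 had a change of -0.07 ± 0.26. TRIM25, at 794 to 1852 on LPS+TGFβ1 arrays (median 1303) and 1225 to 2414 on LPS arrays (median 1570), had a change of -0.36 ± 0.16 (unadjusted p = 0.0366, adjusted p = 0.154 in the limma fit), and IFITM2, APOL6 and OASL had -0.35 ± 0.34, -0.34 ± 0.23 and -0.34 ± 0.34. APOL6 was at 170 to 449 on LPS+TGFβ1 arrays (median 270), against 179 to 869 on LPS arrays (median 350), and OASL at 647 to 2155 on LPS+TGFβ1 arrays (median 1260), against 609 to 3444 on LPS arrays (median 1858). On the other side OAS3 was at 52.98 to 295 on LPS+TGFβ1 arrays (median 142), against 41.7 to 233 on LPS arrays (median 74.3), a change of 0.38 ± 0.24, and PARP9, TRIM22, HERC5, LGALS3BP and RSAD2 had changes from 0.26 to 0.30. PARP9 was at 401 to 1105 on LPS+TGFβ1 arrays (median 665), against 278 to 933 on LPS arrays (median 544), and TRIM22 at 1427 to 5473 on LPS+TGFβ1 arrays (median 3350), against 987 to 5777 on LPS arrays (median 2798). All of these groups overlap. HERC5 was at 2204 to 15525 on LPS+TGFβ1 arrays (median 7356), against 1647 to 14686 on LPS arrays (median 7350). LGALS3BP was at 177 to 415 on LPS+TGFβ1 arrays (median 319), against 132 to 394 on LPS arrays (median 232), and RSAD2 at 342 to 2591 on LPS+TGFβ1 arrays (median 1457), against 244 to 2907 on LPS arrays (median 1250). Upstream, IFNB1 was at 36.0 to 119 on LPS+TGFβ1 arrays (median 57.7), of which 6 were above background, against 46.8 to 247 on LPS arrays (median 125), a change of -0.54 ± 0.22 that did not pass the test (adjusted p = 0.103). IRF7, IRF9, IRF1 and TICAM1 had changes of -0.07 ± 0.22, 0.12 ± 0.12, -0.41 ± 0.31 and -0.09 ± 0.07, none called. PTPN6 fell by 1.16 ± 0.10 on the log2 scale (adjusted p = 3.2e-11), and 3 of the 7 negative regulators fell in all, with PTPN2 by 0.44 ± 0.08 and SOCS1 by 0.34 ± 0.10. PTPN6 intensity was 1889 to 3261 on LPS+TGFβ1 arrays (median 2512), against 5168 to 6264 on LPS arrays (median 5637), with no overlap. Among the other pathway genes, 3 of the 9 receptor and kinase genes rose and none fell, and 1 of the 21 ligands fell. On the route to interferon 1 of the 15 genes rose and 1 fell. Over all probes 5.65% were higher and 6.97% lower.

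LPS raised the antiviral genes in the presence of TGFβ1 too. Between LPS+TGFβ1 and TGFβ1, 51 of the 53 genes were higher and none was lower, where 10.6% of all probes were higher and 11.5% lower, with a median log2 change of 2.70. ZBP1, with 0.16 ± 0.07, and TRIM21, with 0.37 ± 0.21, were not called. The interaction, the LPS change with TGFβ1 minus that without, tests the difference. It called 1 gene lower and none higher, where 2.84% of all probes were lower and 1.73% higher, and 2 of the 53 had an unadjusted p under 0.05. SP100 was that gene, with an interaction of -0.69 ± 0.17 on the log2 scale (adjusted p = 0.0144): its LPS change was 0.65 ± 0.12 with TGFβ1 and 1.34 ± 0.12 without. SP100 intensity was 409 to 619 on LPS+TGFβ1 arrays (median 603), 318 to 693 on LPS arrays (median 545), 288 to 418 on TGFβ1 arrays (median 335) and 146 to 228 on PBS arrays (median 161). LPS+TGFβ1 and LPS arrays thus overlap, and TGFβ1 arrays lie above PBS arrays. The call was not made without replicate 5, without replicate 6, without chip 3, or with the dimmest probe of each gene.

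No other interaction among the 53 genes passed the adjusted test, and besides SP100 only NMI had an unadjusted p under 0.05. IFI27 and HERC5 had -0.69 ± 0.66 and -0.69 ± 0.67, IFI6, XAF1 and PLSCR1 had -0.53 ± 0.33, -0.53 ± 0.32 and -0.53 ± 0.36, and the highest were LY6E with 0.50 ± 0.56, RSAD2 with 0.43 ± 0.68, IFITM1 with 0.41 ± 0.55, SP110 with 0.40 ± 0.37 and NMI with 0.36 ± 0.15. LY6E was at 2302 to 12394 on LPS+TGFβ1 arrays (median 7088), against 210 to 345 on TGFβ1 arrays (median 290), and NMI at 2329 to 3657 on LPS+TGFβ1 arrays (median 2980), against 1712 to 2026 on TGFβ1 arrays (median 1787). XAF1 was at 1958 to 5263 on LPS+TGFβ1 arrays (median 3238), against 503 to 743 on TGFβ1 arrays (median 573), and PLSCR1 at 722 to 2320 on LPS+TGFβ1 arrays (median 1477), against 256 to 501 on TGFβ1 arrays (median 426). None of these 4 pairs of groups overlaps. ISG20 had the widest error, with an interaction of -0.20 ± 0.75. Of the pathway genes, the interaction was called lower for 4 of 9 receptor and kinase genes and 4 of 15 genes on the route to interferon. It was also lower for 1 of 9 STAT and IRF genes and 1 of 7 negative regulators, and higher for none. Over all probes 2.84% were lower and 1.73% higher.

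**Figure D3:**
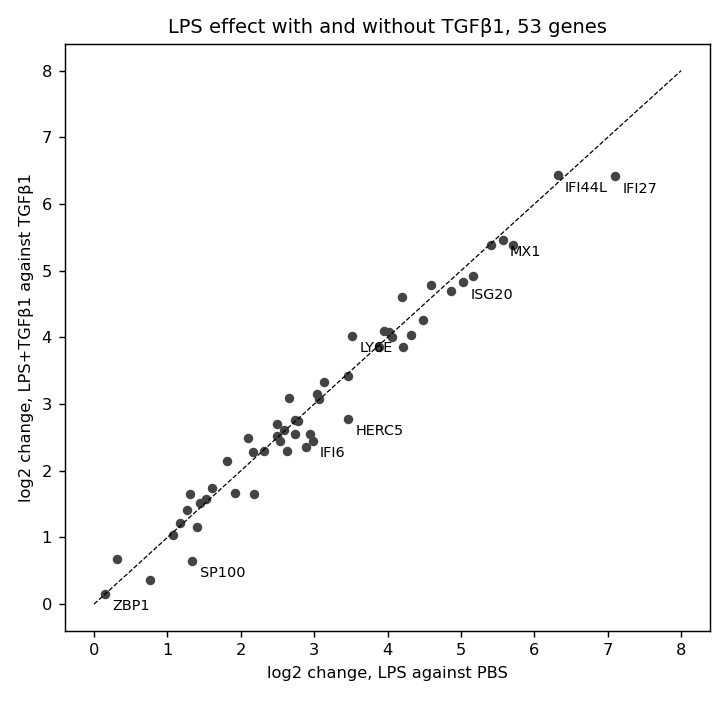
Log2 change of the 53 genes between LPS+TGFβ1 and TGFβ1 (vertical axis) against that between LPS and PBS (horizontal axis), on the log2(intensity + 50) scale, with the line of equal change dashed. Most genes lie close to the line, and SP100 lies below it, at 0.65 with and 1.34 without TGFβ1.

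The size of the LPS response differed between same-numbered arrays, also within a chip. The median over the 53 genes of the log2 difference between LPS and PBS arrays of the same number was 2.00, 1.82, 2.00 and 2.01 for replicates 1, 3, 4 and 7, and 3.97, 3.79, 3.66 and 3.84 for replicates 2, 5, 6 and 8. Replicates 1 and 2 share chip 1, and replicates 7 and 8 share chip 4, so that these levels did not go with the chip alone. By chip, the median log2 change of the 53 genes between LPS and PBS was 2.83, 1.93, 3.75 and 2.94 on chips 1 to 4, in a fit of all arrays with a mean per treatment and chip. That fit called no gene for the LPS change on chip 3 minus that on chip 2, and no probe at all (0%), although 52 of the 53 differences were positive and 41 had an unadjusted p under 0.05. Chips 1 and 4 each hold an LPS array of the upper and one of the lower level, and their spread enters that fit. In a fit of the 16 arrays of chips 2 and 3 alone, which was chosen after the LPS levels of these chips had been seen and so is no independent test, the LPS change was larger on chip 3 for 52 of the 53 genes and smaller for none, where 5.96% of all probes were larger and 6.22% smaller. The median difference was 1.85 on the log2 scale, against -0.07 over all probes. On chip 3 itself 52 genes were higher with LPS, where 14.5% of all probes were higher and 14.8% lower, and on chip 2 the number was 49, where 16.8% were higher and 11.1% lower.

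ISG20 showed the widest gap. It was at 12384 and 11066 on the LPS arrays of chip 3, against 49.2 and 44.2 on its PBS arrays, and at 816 and 956 on the LPS arrays of chip 2, against 61.3 and 77.9 on its PBS arrays. The log2 change was 6.93 ± 0.13 on chip 3 and 2.97 ± 0.13 on chip 2 (SE, 2 arrays per treatment and chip), a difference of 3.96 ± 0.18 (limma adjusted p = 1.28e-09). MX2 was at 10851 and 9608 on LPS and 191 and 162 on PBS arrays of chip 3, and at 2831 and 2836 on LPS and 565 and 541 on PBS arrays of chip 2. Its change was 5.51 ± 0.10 on chip 3 and 2.26 ± 0.10 on chip 2, and both a higher LPS level and a lower PBS level on chip 3 entered the difference of 3.25 ± 0.15. IFI27 differed by 3.33 ± 0.16, RSAD2 by 2.90 ± 0.22, IFITM1 by 2.78 ± 0.15 and UBE2L6 by 2.77 ± 0.14. At the other end LAP3 differed by 0.55 ± 0.15, NMI by 0.69 ± 0.15 and ADAR by 0.71 ± 0.14, and ZBP1 had -0.09 ± 0.13, which was not called. RTP4, TRIM21 and NMI were called for LPS on chip 3, with 2.09 ± 0.10, 1.22 ± 0.14 and 0.79 ± 0.11, and not on chip 2, with 0.21 ± 0.10, 0.18 ± 0.14 and 0.10 ± 0.11.

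**Figure D4:**
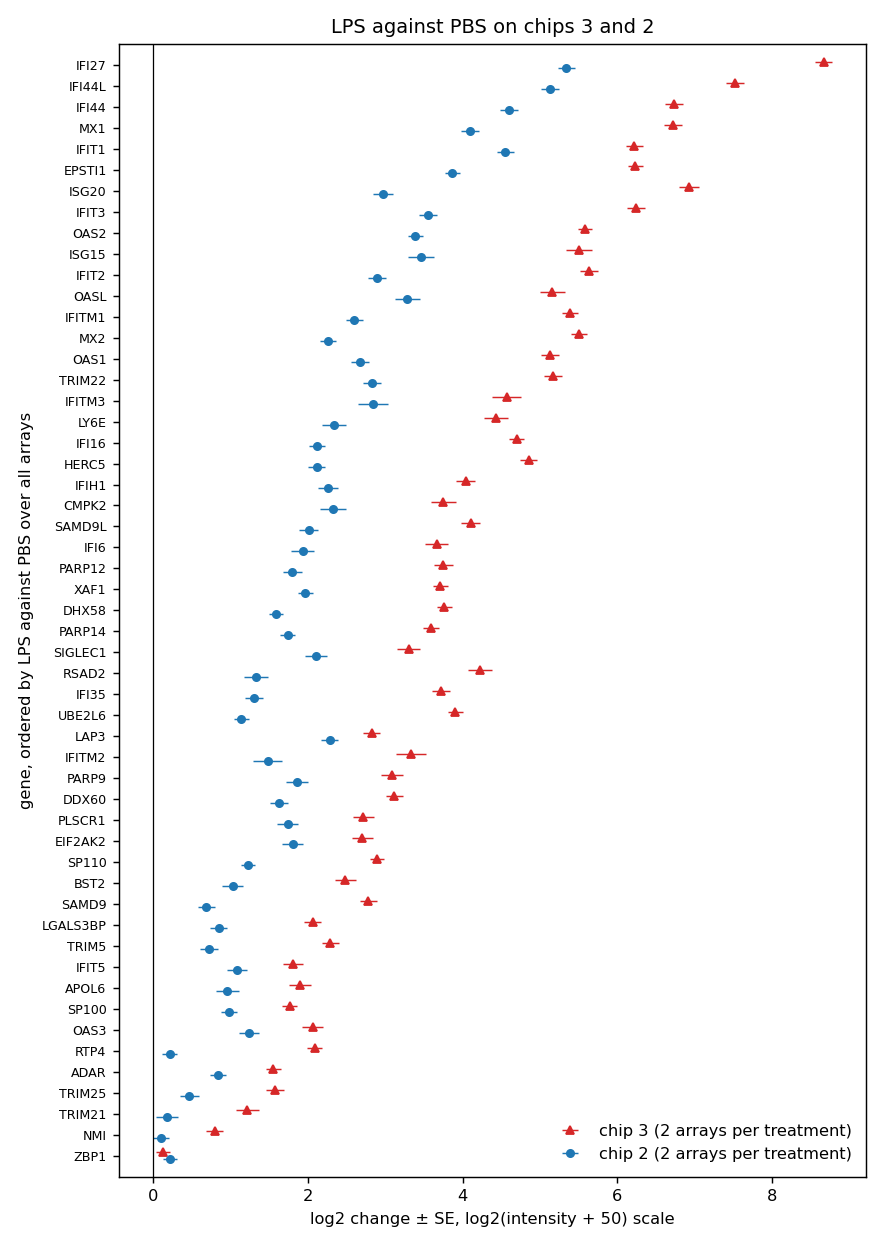
Log2 change between LPS and PBS for each of the 53 genes, with its SE, on chip 3 (triangles) and chip 2 (circles), 2 arrays per treatment and chip, from the fit of these chips alone. The points of chip 3 lie to the right of those of chip 2 for every gene but ZBP1.

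The PBS arrays of the chips were not alike either. Among PBS arrays alone, 3 of the 53 genes were higher and 21 lower on chip 3 than on chip 2, where 30.2% of all probes were higher and 8.39% lower, and the median log2 difference was -0.25, against 0.21 over all probes. MX2 differed by -1.42 ± 0.10, IFITM1 by -1.16 ± 0.11, IFI16 by -1.13 ± 0.10, OAS2 by -1.09 ± 0.09 and MX1 by -1.01 ± 0.11. OAS2, for one, was at 326 and 338 on the PBS arrays of chip 3, against 764 and 759 on those of chip 2. On LPS arrays OAS2 stood in the opposite order, at 17549 and 18982 on chip 3, against 8185 and 8715 on chip 2. The higher PBS genes were OAS3, CMPK2 and LAP3, with 0.52 ± 0.13, 0.51 ± 0.16 and 0.32 ± 0.11.

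The change with TGFβ1 added to LPS also differed by number. The median over the 53 genes of the log2 difference between LPS+TGFβ1 and LPS arrays of the same number was 0.33, 0.25, 0.20 and 0.26 for replicates 1, 3, 4 and 7, where 46, 39, 38 and 41 genes were higher with TGFβ1. It was -0.25, -0.11, -0.18 and -0.13 for replicates 2, 5, 6 and 8, where 8, 13, 8 and 15 genes were higher. The absence of calls over all arrays thus covers numbers that went in opposite directions. The median over all probes was lower with TGFβ1 in every number. It was 6.56 to 6.67 on LPS+TGFβ1 arrays and 6.61 to 6.74 on LPS arrays, and 6.56 against 6.71 for replicate 2. Part of the lower values of the 53 genes may thus be shared by the whole array, which was not tested. On chip 3 none of the 53 genes was higher and 11 were lower in LPS+TGFβ1 than in LPS. Of all probes 6.48% were higher and 6.66% lower. The median log2 change of the 53 genes was -0.14, against -0.07 over all probes. On chip 2, 10 were higher and 1 lower, where 4.96% of all probes were higher and 6.17% lower. There the median was 0.22, against -0.07 over all probes. Tested directly, the change on chip 3 minus that on chip 2 was negative and called for 11 genes, namely ISG20, IFIT2, IFIT3, UBE2L6, SAMD9L, PARP12, DHX58, SAMD9, MX2, RTP4 and PARP14, and positive and called for none, where 2.18% of all probes were negative and 2.14% positive. These calls come from 2 arrays per treatment and chip, from the same fit of chips chosen after their values were seen.

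ISG20 stood out again. It was at 7060 and 5944 on LPS+TGFβ1 arrays of chip 3, against 12384 and 11066 on LPS arrays, a change of -0.85 ± 0.13. On chip 2 it was at 1434 and 1684 on LPS+TGFβ1 arrays, against 816 and 956 on LPS arrays, a change of 0.78 ± 0.13, so that the direction was opposite (difference -1.63 ± 0.18, adjusted p = 6.8e-05). IFIT2 had changes of -0.36 ± 0.12 on chip 3 and 0.51 ± 0.12 on chip 2, a difference of -0.87 ± 0.17, and IFIT3 had -0.47 ± 0.11 and 0.27 ± 0.11, a difference of -0.74 ± 0.16. HERC5, which was called on chip 2 with 0.59 ± 0.11 and had 0.07 ± 0.11 on chip 3, did not pass the test of the difference (-0.52 ± 0.15, adjusted p = 0.068).

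IFI27 was called lower with TGFβ1 on both chips. It was at 18230 and 16438 on LPS+TGFβ1 arrays of chip 3, against 34717 and 33517 on LPS arrays, and at 3339 and 2867 on LPS+TGFβ1 arrays of chip 2, against 5954 and 6182 on LPS arrays. The changes were -0.98 ± 0.11 on chip 3 and -0.96 ± 0.11 on chip 2 (adjusted p = 1.1e-05 and 1.8e-05), with a difference of -0.02 ± 0.16.

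**Figure D5:**
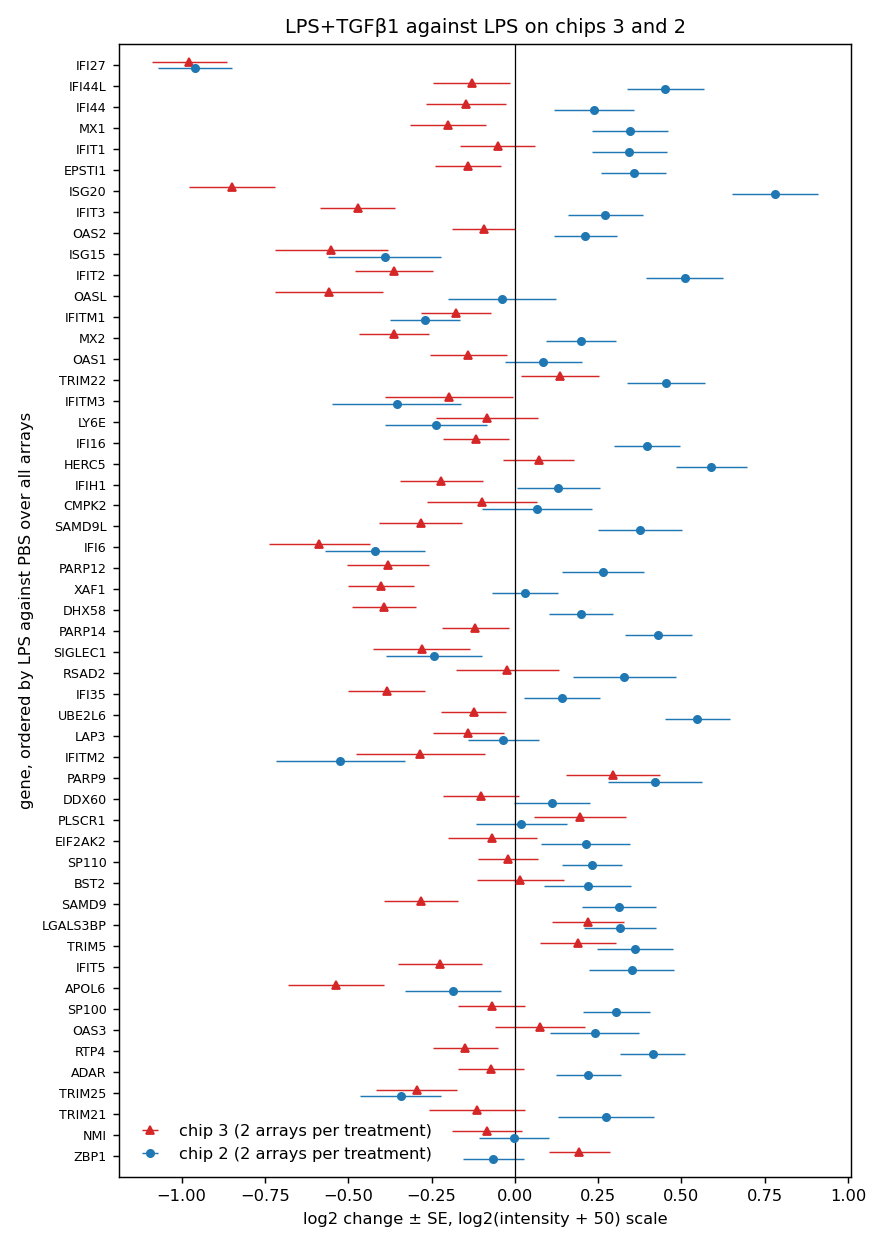
Log2 change between LPS+TGFβ1 and LPS for each of the 53 genes, with its SE, on chip 3 (triangles) and chip 2 (circles), 2 arrays per treatment and chip, in the order of the LPS response. IFI27 is near -1 on both chips, and ISG20 has opposite directions.

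For TGFβ1 alone no gene passed the test of a difference between the chips. Against PBS, 6 of the 53 genes were higher and 4 lower on chip 3, where 4.38% of all probes were higher and 2.43% lower, and 3 were higher and 4 lower on chip 2, where 5.33% and 3.80% were. The change on chip 3 minus that on chip 2 was called for none of the 53, where 0.171% of all probes were higher and 0.159% lower. HERC5 rose by 1.05 ± 0.11 on chip 3 and 0.91 ± 0.11 on chip 2, SP100 by 0.87 ± 0.10 and 0.78 ± 0.10, and PLSCR1 by 0.93 ± 0.14 and 0.53 ± 0.14. LY6E had changes of -0.90 ± 0.15 on chip 3 and -0.93 ± 0.15 on chip 2 and IFITM1 of -0.73 ± 0.11 and -0.85 ± 0.11, all called lower. IFITM2 and IFITM3 were called lower on chip 3 alone, with -0.72 ± 0.19 and -0.68 ± 0.19, against -0.55 ± 0.19 and -0.49 ± 0.19 on chip 2. TGFβ1 replicate 6 lies on chip 3 and was far below the other TGFβ1 arrays for both: IFITM2 was at 2916 and 1541 on the TGFβ1 arrays of chip 3, against 3183 and 3934 on its PBS arrays.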

How the data were processed

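Treatments, replicate numbers and chips were taken from the labels, and the 56 genes, the further lists and the tests were chosen with earlier results of these data known. Each value is an intensity as deposited by the authors, on a linear scale. BeadStudio 3.2 is named, without a role, per the submitters' processing notes. How background was corrected and whether the arrays were normalized is not given in the sources used here, and values reached down to -35.4. A table of non-normalized signal was not used, since its 64 columns have names that match no label, so normexp correction of it was not run. Symbols came from the platform annotation.

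Values were set to log2(intensity + 50) and tested over all 24518 probes and 32 arrays with limma 3.58.1 in R 4.3.3 (lmFit, eBayes, 4 group means, two-sided), called at a Benjamini-Hochberg adjusted p under 0.05, and tested on simulated data. No probe was filtered. A probe was above background past the mode of dim values plus 3 SDs. "At least N-fold" sets the bright group's mean log2 against the dim group's mean, where each array enters with the probe's own signal or the array's lowest signal past background, whichever is higher. Errors are SEs of the fit. Genes given with array values were mainly the 12 largest and 6 smallest LPS changes, the 6 largest changes in the other comparisons, and the IFIT, IFITM, OAS and MX families. Of the pathway genes, called ones were named in part, up to 6 a list, and the other calls were given as counts. Deviations from group means correlated over 0.1 in all 8 same-numbered pairs of LPS+TGFβ1 with LPS (0.48 to 0.65) and of TGFβ1 with PBS (0.20 to 0.67). Pairs of other numbers had medians of -0.41 and -0.22. Only 5 of the 8 LPS arrays and 3 of the 8 PBS arrays correlated best with their own number in these groups. For LPS with PBS, 7 of the 8 same-numbered pairs were over 0.1, and replicate 7 had the lowest correlation, at -0.04. Pairing number by number was therefore not shown, and the number block and same-numbered pairs rest on the labels. Alternatives were other offsets, a filter on dim probes, quantile and median scaling, array weights, blocks, other probes, and arrays or chips left out. The number of arrays limits the precision.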

Additional observations from a re-analysis of the deposited data

Results flagged for a closer look

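On single arrays, 12 of 212 gene and treatment groups of 8 had a highest or lowest array far from the rest. A rate of 1 in 20 over all 212 would be 10.6, but that number cannot serve as the chance level here. LPS and LPS+TGFβ1 arrays were split between an upper and a lower level, which leaves little room for a lone far array. All 12 groups were PBS or TGFβ1 groups. Genes also share arrays, so the groups are not independent. The 12 were not spread evenly over the arrays either. PBS replicate 8 was the lowest for IFI35 with an intensity of 459.88 (group median 853), IFITM2 with 1323 (4214), IFITM3 with 541.56 (1752), ISG15 with 107.9 (354), LY6E with 250.04 (507), RTP4 with 108.82 (204) and TRIM21 with 428.18 (706), and the highest for APOL6 with 160.15 (104). TGFβ1 replicate 6 was the lowest for EIF2AK2 with 1124.4 (1444), IFITM2 with 1540.8 (2935) and IFITM3 with 704.43 (1322). PBS replicate 1 was the highest for NMI with 2894.4 (2234). The numbers of genes called in each comparison over all arrays were equal with and without PBS replicate 8, and with and without TGFβ1 replicate 6.

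The effect of LPS differed with and without TGFβ1 for SP100, with an interaction of -0.69 on the log2 scale. It differed between chips for 52 of the 53 genes, all larger on chip 3 than on chip 2, and the change with TGFβ1 added to LPS differed between these chips for 11 genes, all lower on chip 3, in the fit of the arrays of both chips alone. These chips were set against each other after their LPS levels had been seen, and the fit of all arrays called 0 genes for either difference.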

How the results depend on the processing

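The 52 genes higher with LPS against PBS, the 51 higher for LPS+TGFβ1 against TGFβ1 and the absence of lower genes in both stayed within 1.5 times under every alternative run. Single genes moved: NMI was not called under quantile scaling, median scaling, a fit of LPS and PBS arrays alone, or without replicate 5, 6 or 8, or chip 3 or 4, and TRIM21 not without chip 3. With the dimmest probe ADAR and UBE2L6 were not called. For TGFβ1 against PBS, where 1 gene was higher and 0 lower, 3 were higher with array weights, 2 with a chip block, 2 with the replicate block, 7 with only these groups and 3 with a block for 2 sets of arrays along the first principal component of the other probes (added after seeing the data). Lower were 1 with the filter on dim probes, 1 with quantile scaling, 1 with array weights, 1 with the chip block, 1 with the replicate block, 3 with only these groups, 1 with the block for sets, and 0 to 1 over the replicates left out (1 without replicate 6). Calls over all probes moved too. Either way, 4426 of the 24518 probes were called with array weights, 2994 with the chip block and 3415 with the block for sets. Quantile scaling called 2675, against 2189 in the main fit. For LPS+TGFβ1 against LPS the block for sets called 1 gene higher, OAS3, against 0, and the replicate block 0. Of all probes, the block for sets called 6096 either way in that comparison. The 1 lower interaction (SP100) was 0 with the dimmest probe, 0 without chip 3, and 0 to 1 over the replicates left out (0 without 5 or 6). The LPS change on chip 3 minus chip 2 was called for 0 genes over all arrays and 52 in chips 2 and 3 alone. The causes were not tested, except that the last fit leaves out the arrays of chips 1 and 4. The replicate block also gave 53 genes for LPS against PBS, where ZBP1 was added, and 52 for LPS+TGFβ1 against TGFβ1, and changed no other count over all arrays. For dim genes, OAS3, IFIT5 and SIGLEC1 among them, PBS signal at background limits the change to a lower bound.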

Other observations

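Second probes of the same genes did not all give the same size of change between LPS and PBS. A second probe of IFI6 had a log2 change of 4.96, against 2.98 for the brighter one used above. The 2 further probes of SP100 had 1.26 and 0.74, against 1.34, and those of SP110 had 2.24 and 1.83, against 2.09. For OAS1 the further probes had 3.28, 3.67 and 0.88, against 4.02, and for OAS2 3.70, 2.35 and 1.88, against 4.59. One further probe of ADAR, above background on 0 LPS arrays and 1 PBS array, had 0.01 and was not called, while the other had 1.52. Which transcripts these probes read was not tested.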
